A study of Mus musculus with 12 samples.

Results

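The angiopoietin, Tie and apelin genes of vessel sprouting were followed in bulk RNA-seq of 12 mouse breast tumours. They are Angpt1, Angpt2, Tek, Tie1, Ptprb, Apln, Aplnr, Esm1 and Unc5b, chosen by gene symbol, and all 9 were found among the 25116 genes of the deposited table. The tumours grew from E0771 cells, a triple-negative mouse breast cancer line, placed into the mammary fat of C57BL/6J mice, the strain they derive from. All host mice carried both Tie2CreER, a tamoxifen-activated recombinase under the promoter of Tek (Tie2), and ERKi, an inducible knock-in gene for endorepellin, the angiostatic C-terminal part of perlecan. The 7 induced tumours came from mice given tamoxifen and the 5 control tumours from mice given a control injection whose content the labels do not name, and all were taken at day 22. Neither the age of the mice nor whether each tumour came from its own mouse is stated in the sources used here, so p-values measure the spread between these tumours. The promoter of Tek is known to be active in some blood cells as well as in endothelium. No group received tamoxifen without the knock-in allele, so the drug and the induced gene cannot be told apart.

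Angiopoietins are secreted ligands of the receptor tyrosine kinase Tie2, encoded by Tek. Angpt1, made mainly by perivascular cells, activates Tie2 and keeps vessels quiet, whereas Angpt2, stored and released by endothelial cells, often blocks this signal and loosens vessels for sprouting. Tie1 is a partner receptor of Tie2, and Ptprb encodes VE-PTP, the endothelial phosphatase that removes phosphate from Tie2. Apelin (Apln) is a peptide of sprouting endothelial tip cells, and its G protein-coupled receptor Aplnr is carried by endothelial cells. Esm1 encodes endocan, a secreted proteoglycan used as a tip cell marker, and Unc5b is a netrin receptor that restrains sprouting in endothelium and is also made outside vessels.

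Total counts were 18993192 to 28372821 per library. Values are CPM, counts scaled to library size with TMM factors. Perlecan mRNA (Hspg2) was at 536 ± 100 CPM in induced tumours and 550 ± 81.4 CPM in control tumours (SD, n = 7 and n = 5), and it remains unknown from the labels and files whether knock-in transcripts add to it. All 25 endothelial markers on a list that holds none of the 9 genes were in the table, and none was at 0 in every tumour. Their summed level was 373 to 483 CPM in induced and 378 to 482 CPM in control tumours. The 6 epithelial markers, among them Krt8 and Epcam, summed to 2.48 to 4.70 CPM in induced and 1.75 to 7.14 CPM in control tumours. Control 1 stood apart, with the highest fibroblast and macrophage scores of the 12 tumours (2.81 and 2.26). A score is the mean log2 CPM of a list after centring each gene, and in the other 11 tumours these scores ran from -1.31 to 1.65 and from -1.26 to 1.53.

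The promoters of Tek and Tie1, which varied together over the tumours, and of the secreted factors Apln and Esm1 are shown because Tek also names the promoter of the recombinase. Each run holds 300 bases around the start of the gene (RefSeq, GRCm38.p6), 5′ to 3′ on the strand of the gene. They lie at chr4:94739039-94739338 (plus) for Tek, chr4:118489800-118490099 (minus) for Tie1, chrX:48034804-48035103 (minus) for Apln and chr13:113209409-113209708 (plus) for Esm1. By GENCODE M21 the runs of Tek, Apln and Esm1 reach from upstream to just past the start. That of Tie1, whose start there is chr4:118490061, lies mostly inside the gene, so its matches are not all upstream sequence. Capitals mark GGAA, the core of ETS family motifs, or TTCC, the same letters on the other strand.
Tek: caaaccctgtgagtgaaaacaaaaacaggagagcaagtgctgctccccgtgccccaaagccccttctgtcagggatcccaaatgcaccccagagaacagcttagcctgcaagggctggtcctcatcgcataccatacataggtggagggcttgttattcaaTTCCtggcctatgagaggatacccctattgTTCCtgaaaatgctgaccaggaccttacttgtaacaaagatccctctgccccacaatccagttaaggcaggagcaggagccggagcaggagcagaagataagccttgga
Tie1: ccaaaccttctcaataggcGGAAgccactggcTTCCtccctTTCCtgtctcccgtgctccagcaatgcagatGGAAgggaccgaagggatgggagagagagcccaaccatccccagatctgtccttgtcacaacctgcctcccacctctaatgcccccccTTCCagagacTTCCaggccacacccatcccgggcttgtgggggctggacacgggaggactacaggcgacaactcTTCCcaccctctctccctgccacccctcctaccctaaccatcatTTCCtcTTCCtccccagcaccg
Apln: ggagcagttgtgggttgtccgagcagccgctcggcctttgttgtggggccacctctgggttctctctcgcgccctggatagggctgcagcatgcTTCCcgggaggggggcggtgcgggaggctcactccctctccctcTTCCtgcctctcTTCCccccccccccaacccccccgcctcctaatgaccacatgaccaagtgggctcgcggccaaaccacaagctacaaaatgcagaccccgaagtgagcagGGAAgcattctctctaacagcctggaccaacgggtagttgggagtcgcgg
Esm1: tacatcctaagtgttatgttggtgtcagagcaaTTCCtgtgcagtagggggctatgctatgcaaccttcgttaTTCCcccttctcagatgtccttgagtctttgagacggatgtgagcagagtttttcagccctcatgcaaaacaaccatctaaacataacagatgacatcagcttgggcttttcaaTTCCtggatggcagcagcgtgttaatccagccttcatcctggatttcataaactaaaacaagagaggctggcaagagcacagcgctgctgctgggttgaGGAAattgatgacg
The letters occurred 2 times for Tek, 9 for Tie1, 4 for Apln and 4 for Esm1. Of 32851 promoters of this length 96.0% held at least 1 match, with a median of 3, so a match is a description and not a binding site. The promoter table held 5 of the 9 genes, the fifth being Unc5b. The labels do not say which stretch of Tek drives the recombinase.

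The 9 genes differed widely in level per exon length. Unc5b was the highest in all 12 tumours, at 28.6 ± 3.47 CPM per kilobase of exon in induced and 27.8 ± 4.44 in control tumours (SD, n = 7 and n = 5), and its lowest tumour (23.7) was above the highest value of Apln (14.6). The secreted sprouting factors followed, with Apln at 9.04 ± 3.03 CPM per kilobase in induced and 6.84 ± 3.15 in control tumours, Angpt2 at 6.03 ± 1.62 and 5.73 ± 1.55, and Esm1 at 3.88 ± 1.83 and 4.27 ± 1.69. The receptors and their phosphatase were lower. Tie1 was at 1.46 ± 0.405 CPM per kilobase in induced and 1.48 ± 0.276 in control tumours, and Ptprb at 0.646 ± 0.206 and 0.686 ± 0.183. Aplnr was at 0.505 ± 0.330 and 0.689 ± 0.422, and Tek at 0.399 ± 0.171 and 0.521 ± 0.375. Angpt1 was the lowest on average, at 0.0686 ± 0.0286 and 0.0952 ± 0.129 CPM per kilobase. Ranges over the 12 tumours overlapped between all neighbours in this order except Unc5b and Apln. Within a tumour the order held in 12 of 12 for Angpt2 over Esm1, Esm1 over Tie1 and Tie1 over Ptprb, in 10 of 12 for Apln over Angpt2, in 7 of 12 for Ptprb over Aplnr, in 10 of 12 for Aplnr over Tek and in 11 of 12 for Tek over Angpt1. On this per-length scale the mean level stood at percentile 87.4 of all genes tested for Unc5b, 62.1 for Apln, 54.4 for Angpt2 and 14.1 for Tek.

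**Figure D1:**
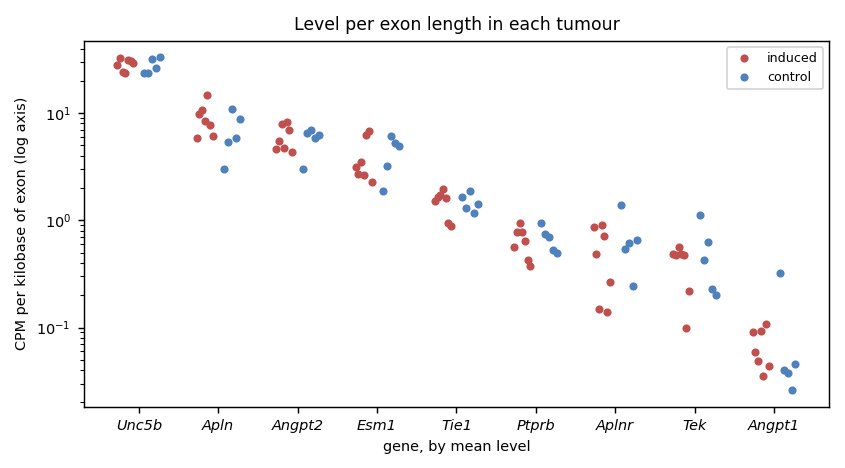
Level of the 9 genes in each tumour, in CPM per kilobase of exon on a log axis, with genes ordered by mean level and each point 1 tumour (7 induced, 5 control). Unc5b lies apart at the top, between 23.7 and 33.1, and Angpt1 at the bottom, between 0.0262 and 0.326.

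No call was made for any of the 9 genes between induced and control tumours. Angpt1 had too few reads to be tested, and of the other 8 genes, which were kept by a minimum count of 10, 3 had a positive and 5 a negative log2 fold change. None of the 8 passed an adjusted p of 0.05, and the called share over all 15199 genes tested was 0% (edgeR quasi-likelihood test). Each of the 8 had an adjusted p of 0.99989. Before adjustment 324 genes (2.13%) had p under 0.05, none of them among these 8, whose smallest was 0.199 for Apln. DESeq2 and limma-voom also called 0 genes, with 607 and 996 at an unadjusted p under 0.05. The median log2 fold change of the 8 was -0.05, beside -0.001 over all genes. In bulk tumours fewer cells of a type and less RNA per cell cannot be told apart. The comparison asks whether endothelial endorepellin alters the tumour vessels.

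Positions are on GRCm38 from GENCODE M21, and exonic bases are those covered by any exon of a gene. The ligand Angpt2 (chr8:18690263-18741562, minus strand, 3690 exonic bases) ran from 16.1 to 30.5 CPM in the 7 induced tumours with a median of 20.2, against 11.2, 24.3, 25.4, 21.7 and 23.0 CPM in control 1 to control 5. The low value of control 1 lay apart from the other control tumours, which sat in the middle of the induced range. The means were 22.3 ± 5.97 CPM in induced and 21.1 ± 5.71 CPM in control tumours (SD, n = 7 and n = 5). The log2 fold change was 0.07 (SE 0.22), and the groups differed by 0.09 in mean log2 CPM (95% interval -0.46 to 0.65, inverted from an exact permutation test). Fold changes from 0.727 to 1.57 lie within it. Without control 1 the log2 fold change was -0.09 (SE 0.18).

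The other ligand, Angpt1 (chr15:42424723-42676977, minus strand, 5205 exonic bases), was barely detected. The induced tumours had 4 to 13 reads with a median of 6 and the control tumours 49, 6, 4, 3 and 5 reads. In CPM this was 0.185 to 0.569 with a median of 0.309 in induced tumours, against 1.70 in control 1 and 0.136 to 0.236 in the other 4 control tumours. In a fit with no filter on low counts edgeR gave a log2 fold change of -0.50 with SE 0.60 and adjusted p = 0.99983, whereas the mean difference in log2 CPM was 0.06 (95% interval -1.10 to 0.98), of the opposite sign. Without control 1 the difference in log2 CPM was 0.60 (95% interval 0.02 to 1.24, exact permutation test), the mean was 0.357 ± 0.149 CPM in induced and 0.194 ± 0.0422 CPM in control tumours (SD, n = 7 and n = 4), and the unfiltered log2 fold change was 0.85 (SE 0.48, adjusted p = 0.99998). The sign for Angpt1 thus rests on 1 tumour and on a handful of reads. Of its exonic bases 14.2% are also annotated to Gm17473 on the opposite strand, and the labels do not say whether counting used strand. The tumour with the most Angpt1 reads was also the one with the highest fibroblast score, and the part of stroma in this value was not tested.

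The receptor Tek (chr4:94739289-94874976, plus strand, 4712 exonic bases) ran from 0.466 to 2.68 CPM in induced tumours with a median of 2.22, against 5.27, 2.03, 2.93, 1.09 and 0.943 CPM in control 1 to control 5. Of the induced tumours, 5 lay close together between 2.22 and 2.68 CPM, and induced 6 and induced 7 were lower, at 0.466 and 1.03 CPM. Control 1 was the highest of all 12. The means were 1.88 ± 0.807 CPM in induced and 2.45 ± 1.77 CPM in control tumours, with a log2 fold change of -0.39 (SE 0.47) that was 0.10 (SE 0.45) without control 1. The difference in log2 CPM was -0.27 (95% interval -1.46 to 0.98, exact permutation test). Tek is the gene whose promoter drives the recombinase in the hosts of both groups, and the labels and files do not say whether transgene transcripts add to its count.

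Tie1, the partner receptor (chr4:118471191-118490061, minus strand, 4917 exonic bases), ran from 4.31 to 9.60 CPM in induced tumours with a median of 7.86, against 8.18, 6.45, 9.14, 5.77 and 6.97 CPM in control 1 to control 5. Induced 6 and induced 7, the low induced tumours for Tek, were at 4.60 and 4.31 CPM, below every control tumour, and induced 4 was above every control tumour. The log2 fold change was -0.02 (SE 0.22) and the difference in log2 CPM -0.05 (95% interval -0.56 to 0.44), so fold changes from 0.678 to 1.36 lie within the interval. Without control 1 the log2 fold change of Tie1 was 0.02 (SE 0.24).

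Ptprb, the phosphatase of Tie2 (chr10:116275523-116389535, plus strand, 13333 exonic bases), ran from 5.04 to 12.6 CPM in induced tumours with a median of 8.60, against 12.7, 9.95, 9.38, 7.08 and 6.64 CPM in control 1 to control 5. Induced 6 and induced 7 were again below every control tumour, at 5.64 and 5.04 CPM, and control 1 was the highest of all 12. Its log2 fold change was -0.09 (SE 0.24), the difference in log2 CPM -0.11 (95% interval -0.70 to 0.48), and without control 1 the log2 fold change was 0.05 (SE 0.25).

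Apln, the ligand of the apelin pathway (chrX:48025146-48034853, minus strand, 3149 exonic bases), had the smallest p of the 8 genes. It ran from 18.5 to 46.1 CPM in induced tumours with a median of 26.6, against 9.40, 16.9, 34.8, 18.7 and 27.9 CPM in control 1 to control 5. Control 1 was the lowest of all 12 tumours and induced 5 the highest, and 5 of 7 induced tumours were above the control mean. The means were 28.5 ± 9.54 CPM in induced and 21.5 ± 9.91 CPM in control tumours, with a log2 fold change of 0.41 (SE 0.30) that was 0.21 (SE 0.26) without control 1. The difference in log2 CPM was 0.47 (95% interval -0.27 to 1.25), which covers fold changes from 0.829 to 2.38.

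The apelin receptor Aplnr (chr2:85136225-85139923, plus strand, 3699 exonic bases) ran from 0.517 to 3.36 CPM in induced tumours with a median of 1.80, against 5.13, 2.00, 2.25, 0.908 and 2.45 CPM in control 1 to control 5. Its counts were 10 to 91 reads in induced tumours, and induced 3, induced 6 and induced 7 were the 3 lowest of that group, with 11, 10 and 26 reads. The log2 fold change was -0.45 (SE 0.52) and was -0.03 (SE 0.52) without control 1. The difference in log2 CPM was -0.54 (95% interval -1.87 to 0.78), the widest of the 9 genes.

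Esm1, the tip cell proteoglycan (chr13:113209659-113218098, plus strand, 2097 exonic bases), ran from 4.81 to 14.2 CPM in induced tumours with a median of 6.55, against 3.92, 6.76, 12.7, 10.9 and 10.4 CPM in control 1 to control 5. Induced 5 and induced 6 were high, at 13 and 14.2 CPM, and the other 5 induced tumours lay between 4.81 and 7.28 CPM. Its log2 fold change was -0.14 (SE 0.34) and was -0.33 (SE 0.31) without control 1, and the difference in log2 CPM was -0.14 (95% interval -0.98 to 0.70).

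Unc5b, the netrin receptor (chr10:60762593-60831581, minus strand, 6258 exonic bases), was the steadiest of the 9. It ran from 148 to 203 CPM in induced tumours with a median of 185, against 149, 149, 200, 164 and 207 CPM in control 1 to control 5. The coefficient of variation was 12.1% in induced and 16.0% in control tumours, where the other 8 genes had 26.8% to 65.4% and 18.6% to 136%. With a log2 fold change of 0.04 (SE 0.12) and a difference in log2 CPM of 0.05 (95% interval -0.22 to 0.32), fold changes outside 0.859 to 1.25 lie beyond the interval. Without control 1 its log2 fold change was -0.02 (SE 0.12).

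**Figure D2:**
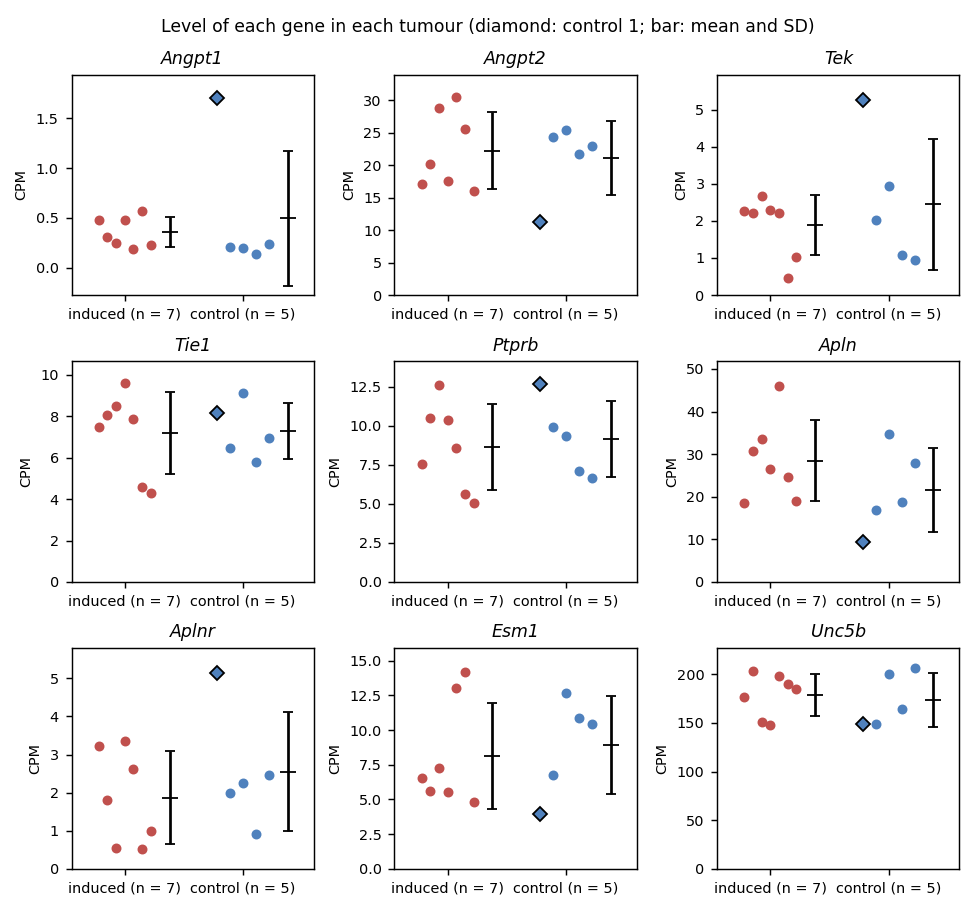
CPM of each gene in each tumour, with 7 induced tumours left and 5 control tumours right in each panel. Bars give mean and SD, and the diamond is control 1, which was the highest tumour for Angpt1, Tek, Ptprb and Aplnr and the lowest for Angpt2, Apln and Esm1.

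**Figure D3:**
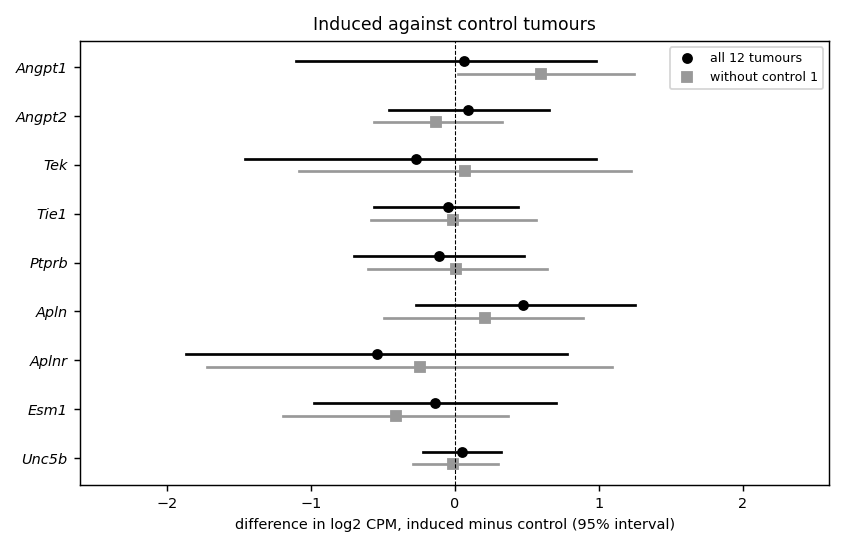
Difference in mean log2 CPM, induced minus control, with 95% intervals from the exact permutation test, for all 12 tumours (black) and without control 1 (grey). With 12 tumours all 9 intervals include 0, and without control 1 that of Angpt1 runs from 0.02 to 1.24.

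The balance within a pair of these genes was compared in 3 ratios, in which the scaling of a library largely cancels. Angpt2 exceeded Angpt1 by 5.68 ± 0.71 log2 units in induced and 5.66 ± 1.68 in control tumours (SD, n = 7 and n = 5). The control values were 2.66 in control 1 and 6.16 to 6.61 in the other 4, and the induced values ran from 4.93 to 6.81. The difference was 0.02 (95% interval -1.24 to 1.64, exact permutation test, two-sided, p = 0.985), and without control 1 it was -0.73 (p = 0.0818, exact permutation test). Apln exceeded Aplnr by 4.11 ± 1.16 log2 units in induced and 3.10 ± 1.33 in control tumours, a difference of 1.01 (interval -0.54 to 2.66, exact p = 0.193, adjusted over the 3 ratios 0.580). Without control 1, where this ratio was 0.86, the difference was 0.45 (exact permutation p = 0.470), and in the 8 tumours left without control 1, control 2, induced 3 and induced 4 it was 0.16 (exact permutation p = 0.750). Tek was below Tie1, at -2.0 ± 0.50 in induced and -1.79 ± 0.82 in control tumours, a difference of -0.21 (interval -1.08 to 0.61, exact p = 0.602), which was 0.08 without control 1. These values are not per length. With all 12 tumours the 3 intervals include 0.

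Over the 12 tumours some pairs of the genes varied together. Of all 36 pairs, 5 had a Pearson correlation of log2 CPM with a Benjamini-Hochberg adjusted p under 0.05 (permutation test, 100000 resamples, n = 12). These pairs lay within the Tie receptors and their phosphatase, or within the secreted factors Angpt2, Apln and Esm1. None of these 5 joined the 2 sets, which follow these pairs and leave out Angpt1, Aplnr and Unc5b. Angpt1, also secreted but with few reads, had r = -0.71 with Angpt2 (adjusted p = 0.0775, permutation test), -0.61 with Apln and -0.51 with Esm1. Aplnr had r = 0.64 with Tek, 0.59 with Tie1 and 0.39 with Ptprb (adjusted p = 0.124, 0.155 and 0.388, permutation test). By Spearman rho, 4 of the 5 pairs named first kept an adjusted p under 0.05, and Angpt2 with Apln had 0.160. Tek and Ptprb had r = 0.86 (adjusted p = 0.0108, permutation test) and Spearman rho 0.80, and r was 0.82 without induced 6 and control 1, the 2 tumours farthest from the median of Tek. Tek and Tie1 had r = 0.79 (adjusted p = 0.0173, permutation test) and rho 0.85, and r = 0.78 without the same 2 tumours. Tie1 and Ptprb had r = 0.83 (adjusted p = 0.0140, permutation test) and rho 0.78. Without induced 6 and induced 7, the 2 tumours farthest from the median of Tie1, r was 0.58 (permutation p = 0.0775, n = 10). The relation was thus not shown without those 2 tumours. In each pair the tumours left out followed the gene named first. The pairs with Tek kept induced 7, and their r without both induced 6 and induced 7 was not computed.

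Among the secreted factors, Angpt2 and Esm1 had r = 0.79 and rho 0.85, and Angpt2 and Apln r = 0.80 and rho 0.66 (adjusted p = 0.0173 for each r, permutation test, n = 12). Without induced 7 and control 1, the 2 tumours farthest from the median of Angpt2, r was 0.63 and 0.56 (permutation p = 0.0560 and 0.0953). Neither relation was thus shown without those tumours. In the 8 tumours left after removing control 1, control 2, induced 3 and induced 4, which earlier results of these data had set apart, r was 0.89 for Angpt2 and Esm1, 0.80 for Angpt2 and Apln, 0.82 for Tek and Ptprb, 0.85 for Tek and Tie1 and 0.91 for Tie1 and Ptprb. Between the sets, Angpt2 had r = -0.33 with Tek, 0.01 with Tie1 and -0.08 with Ptprb over the 12 tumours, and 0.02, 0.33 and 0.33 in the 8. Apln had r = -0.16 with Tek, 0.27 with Tie1 and -0.02 with Ptprb over the 12 tumours, and 0.42, 0.61 and 0.60 in the 8, where Apln and Esm1, both secreted factors, had 0.47. The split into 2 sets thus did not hold for Apln in the 8 tumours. Genes of 1 library share its scaling and its mix of cells, and the part of either in these relations was not tested.

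**Figure D4:**
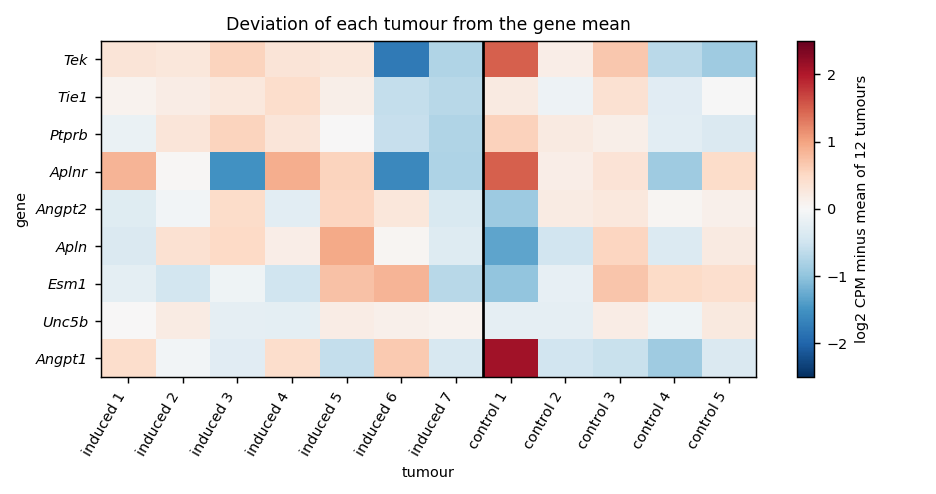
Deviation of log2 CPM from the mean of 12 tumours for each gene (rows) in each tumour (columns, induced left of the line, control right). Tek, Tie1 and Ptprb are low together in induced 6 and induced 7, and control 1 combines high Tek, Ptprb, Aplnr and Angpt1 with low Angpt2, Apln and Esm1.

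**Figure D5:**
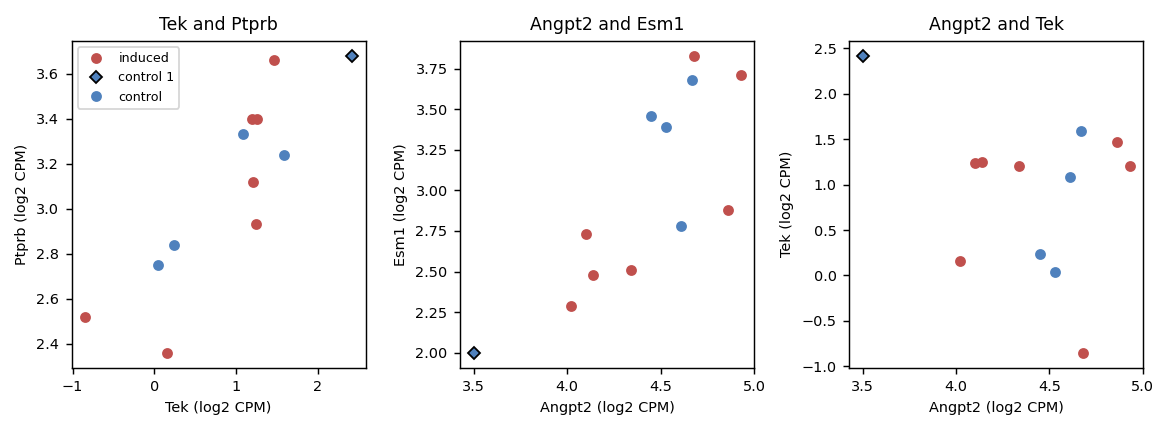
Log2 CPM of Ptprb against Tek, Esm1 against Angpt2 and Tek against Angpt2, with each point 1 tumour. Pearson r was 0.86, 0.79 and -0.33, and the diamond is control 1.

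Slopes on the level of endothelial markers varied in size between the genes, and none reached the threshold over all genes. In a fit of group and endothelial score, the slope was 3.6 (SE 1.32) for Tek, 3.42 (SE 1.62) for Aplnr, 1.79 (SE 0.49) for Tie1, 1.70 (SE 0.63) for Ptprb and 1.63 (SE 0.75) for Apln, in log2 units of the gene per log2 unit of the score. Slopes were nearer 0 for Angpt2 (0.43, SE 0.64), Unc5b (0.21, SE 0.34) and Esm1 (-0.22, SE 0.95). No gene was called at an adjusted p under 0.05, a share of 0% of 15199 genes, and the adjusted p of each of the 8 was 0.9998 (edgeR). Before adjustment 155 genes (1.02%) had p under 0.05, among them 4 of the 8, namely Tie1 (0.00302), Tek (0.0180), Ptprb (0.0186) and Apln (0.0492). The endothelial score ran from -0.31 to 0.23 in induced and from -0.19 to 0.11 in control tumours. Induced 6 and induced 7, lowest for Tie1 and Ptprb, had the 2 lowest scores, -0.31 and -0.27. Without induced 6, and likewise without induced 7, only 2 of the 8 had an unadjusted p under 0.05 (edgeR). Over all genes it was 149 of 15055 and 151 of 15128. No slope was fitted without both tumours. With the score in the fit, the group term was called for none of the 8 genes (called share 0%, adjusted p = 0.99945 for each, edgeR; 1.78% of all genes and 0 of the 8 had an unadjusted p under 0.05), with log2 fold changes from -0.47 for Aplnr and Tek to 0.39 for Apln.

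The mural and hypoxia scores gave no call for these genes either. Over all genes 248 (1.63%) followed the mural score, made from markers of pericytes and smooth muscle, and 0 of the 8 did, with slopes from -0.48 for Esm1 to 0.92 for Tek and a smallest adjusted p of 0.115 for Unc5b (slope -0.31, SE 0.12, edgeR). Unadjusted p was under 0.05 for 29.7% of all genes and for 3 of the 8, Unc5b, Ptprb and Tie1. The count of called genes was 0 without induced 4, which had the highest mural score (1.01), and ran up to 2051 without control 2, so it moved widely with single tumours. Angpt1, known as a mural ligand, had a slope of 1.29 (SE 0.69, adjusted p = 0.292, edgeR) in the unfiltered fit, where 1.22% of genes were called. Angpt2, Apln and Esm1 are known to be induced by low oxygen. With the score of hypoxia target genes their slopes were -0.43 (SE 0.68) for Angpt2, -1.0 (SE 0.83) for Apln and -0.33 (SE 1.03) for Esm1, and 0% of 15199 genes were called. An unadjusted p under 0.05 was reached by 3.94% of all genes and by 1 of the 8, Tie1 (slope -1.36, SE 0.57, unadjusted p = 0.0338, adjusted p = 0.969, edgeR).

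For each of the 8 genes, the genes most alike in log2 CPM over the 12 tumours were listed by Pearson r, given as a description. Closest to Tek were Epas1 (r = 0.89), Cd34 (0.86), Ptprb (0.86) and Pecam1 (0.81), of which Cd34 and Pecam1 are on the endothelial list. Tie1 was closest to Mfsd12 (0.85), Epas1 (0.84), Ptprb (0.83) and Idh1 (0.82). For Ptprb they were Sptlc2 (0.92), Stim1 (0.90), Prex2 (0.89) and Vegfd (0.89), and for Aplnr they were Ccl12, Lrg1 and the endothelial gene Mmrn2 (each 0.85), then Scamp1 and Dse (each 0.83). Epas1 was thus near to both Tek and Tie1.

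The secreted factors had other near genes. Angpt2 was closest to Kifc5b (0.86) and Kifc1 (0.81), near-identical kinesin genes whose reads may be split between them, then Apln (0.80), Fkbp10 (0.79) and Cfap69 (0.79). Apln was closest to Zbtb12 (0.87), Fkbp10 (0.84), Wwp2 (0.82), Abcb10 (0.81) and Kifc1 (0.81), so that Fkbp10 and Kifc1 were near to both. Esm1 was closest to Mir155hg (0.83), Mcm3 (0.82), Ska1 (0.81), Dmap1 (0.80) and Wdr74 (0.79), and Unc5b to Khdrbs1, Lpp and the endothelial gene Egfl7 (each 0.94), then Zfp704 and Hnrnpd (each 0.92). Of the 21 endothelial genes compared, 9 had r over 0.5 with Ptprb (20.5% of all genes did), 7 with Tek (10.6%), 7 with Tie1 (5.71%), 5 with Aplnr (6.96%), 5 with Apln (4.67%), 5 with Unc5b (25.7%), 3 with Angpt2 (4.10%) and 2 with Esm1 (9.62%).

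Other genes of the same pathways showed no call between the groups. Of 17 tested partners of Tie signalling, 10 had higher and 7 lower values in induced tumours, 0 passed, and the median log2 fold change was 0.01, with 13 higher and 4 lower (0.06) without control 1. Svep1, a matrix protein that binds Tie1, was at 0.993 ± 1.53 CPM in induced and 4.83 ± 8.74 CPM in control tumours, or 0.918 ± 0.417 CPM without control 1 (n = 4), the adaptor Grb14 at 48.8 ± 11.6 and 38.3 ± 7.87 CPM, and Foxo1, a transcription factor held back by Tie2 signalling that drives Angpt2, at 2.49 ± 0.768 and 3.3 ± 0.863 CPM (SD, n = 7 and n = 5). Klf2, an endothelial factor induced by flow, was at 217 ± 52.6 CPM in induced and 174 ± 53.0 CPM in control tumours. Of 7 tested partners of the apelin pathway, 1 was higher and 6 lower, with a median of -0.08 and 0 passing, against 4 and 3 (0.01) without control 1. The receptor adaptor Arrb1 was at 15.7 ± 2.73 CPM in induced and 20.1 ± 10.5 CPM in control tumours, or 15.6 ± 3.90 CPM without control 1.

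Among 22 other genes of tip cells, 12 were higher and 10 lower with a median of 0.03 and 0 passing, and 16 were higher and 6 lower (0.09) without control 1. Mcam, an adhesion molecule of endothelial and mural cells, was at 19.7 ± 3.28 CPM in induced and 16.7 ± 2.5 CPM in control tumours. Ramp3, a co-receptor for adrenomedullin, was at 2.15 ± 1.17 and 3.06 ± 1.77 CPM, the second value being 2.3 ± 0.634 CPM without control 1. Flt4, the receptor for VEGF-C, was at 1.96 ± 0.366 CPM in induced and 1.64 ± 0.304 CPM in control tumours. Of 9 tested partners of Unc5b, 4 were higher and 5 lower (7 and 2 without control 1), with Robo4, its endothelial binding partner, at 5.92 ± 0.991 CPM in induced and 5.16 ± 0.847 CPM in control tumours and the death-associated kinase Dapk1 at 0.764 ± 0.570 and 1.70 ± 2.14 CPM, the second value being 0.743 ± 0.122 CPM without control 1. Of 5 tested angiopoietin-like genes, 3 were higher and 2 lower (5 and 0 without control 1), with Angptl2 at 472 ± 71.4 and 438 ± 56.9 CPM.

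Marker lists of other cells are given for the mix of the samples. Of 25 endothelial markers 12 were higher and 13 lower (median log2 fold change -0.03), of 12 mural 5 and 7 (-0.07), of 3 lymphatic 2 and 1 (0.26), of 22 hypoxia targets 9 and 13 (-0.02) and of 3 epithelial 2 and 1 (0.06). Fibroblast markers were higher for 0 and lower for 10 of 10 (-0.75), macrophage markers 1 and 9 of 10 (-0.55), adipocyte markers 1 and 6 of 7 (-0.65) and skeletal muscle markers 4 and 6 of 10 (-0.19), and none of these genes passed. The fibroblast, macrophage, adipocyte and mural directions turned when control 1 was left out. Endothelial markers, with a median near 0 in either case, were 14 higher and 11 lower (0.02) without control 1. Without it, higher and lower were 7 and 3 for fibroblast (median 0.66), 9 and 1 for macrophage (0.27), 4 and 3 for adipocyte (0.19) and 9 and 3 for mural markers (0.22), again with 0 passing. Induced 4 stayed in, with the highest fibroblast, macrophage and mural scores of the tumours left (1.65, 1.53 and 1.01). The lists were not compared without both tumours, so how far the turned directions rest on induced 4 was not tested. The mean fibroblast score was -0.21 in induced tumours, against 0.29 in control tumours with control 1 and -0.34 without control 1. The summed fibroblast level was 582 to 2210 CPM in induced and 713 to 3650 CPM in control tumours. The part of these cells in the values above was not tested.

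In the authors' deposited table each of the 9 genes had an adjusted p of 0.994. The log2 fold changes in the authors' deposited table were 0.40 for Apln, -0.46 for Aplnr, -0.39 for Tek and -0.51 for Angpt1.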

How the data were processed

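RNA of 12 tumours was sequenced. Per the file headers, the deposited table holds raw counts by Ensembl gene together with the authors' rlog values, on a log2 scale. The deposited table also held the authors' own log2 fold change, signed fold change, p-value and adjusted p-value, made by a test not given in the sources used here. Build GRCm38 (mm10) is named in the submitters' processing notes. Aligner, counter, annotation, use of strand: not given in the sources used here. Because the labels' growth text is about fat cell differentiation of another line, groups came from the sample titles. Columns were matched by library name. Between tumours of a group the chi-square per gene was 13.3 to 214 for genes averaging 50 or more counts, so no library was a copy of another in its group. Each of the 12 was treated as its own sample, which this check cannot show for the mice.

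Counts were fitted with edgeR 4.0.16 in R 4.3.3 (filterByExpr by group, minimum count 10, TMM, robust quasi-likelihood F test, two-sided) on all 15199 genes kept, with Benjamini-Hochberg adjustment over all of them and a threshold of 0.05. Slopes on scores came from fits of group and score. Log2 CPM used a prior count of 2. Intervals at 95% invert the exact permutation test in steps of 0.01. Exon lengths and positions are from GENCODE M21 on GRCm38. The rlog values were not tested. Alternatives were other size factors and filters, no robust estimation, DESeq2 1.42.0, limma 3.58.1 voom with quality weights, a replicate block and removal of tumours, and the fit without filter and without control 1 and the lists without control 1 were added after seeing the data. Fits were tested on simulated data. The 9 genes and the lists were chosen with earlier results of these data known. The rule named the 9 genes, Hspg2, up to 4 genes of smallest p per list and the 5 genes most like each in pattern, of which some are not reported here.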

Additional observations from a re-analysis of the deposited data

Results flagged for a closer look

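In control 1, Angpt1 was at 1.70 CPM, far above the other 4 control tumours at 0.136 to 0.236 CPM, and Angpt2 was at 11.2 CPM, far below the other 4 at 21.7 to 25.4 CPM. Each of these gaps exceeded the 95% critical value of Dixon's test on log2 CPM. Of 18 gene and group combinations examined, 2 were flagged, where chance flags about 1 in 20. Control 1 also had the highest fibroblast and macrophage scores of the 12 tumours, 2.81 and 2.26, and the part of these cells was not tested.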

How the results depend on the processing

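No gene was called between the groups under any alternative run, and none of the 9 genes was called in any fit, while directions, sizes and counts over all genes moved. The cause was not tested. Without control 1, control 2, induced 3 and induced 4, the log2 fold change was -0.103 for Angpt2 and -0.006 for Unc5b. With the endothelial score in that fit it was -0.093 for Angpt2 and 0.002 for Aplnr. In these 8 tumours the mural slopes were 0.915 for Angpt2, 0.756 for Apln and 1.911 for Esm1 and the hypoxia slope of Unc5b was -0.146, with 0 genes called for the mural and 6 for the hypoxia score, against 248 and 0. The log2 fold change there shrank without turning to 0.034 for Apln, -0.038 for Aplnr and -0.016 for Tek, and was -0.369 for Esm1. The ratios there differed by 0.16 (p = 0.750, exact permutation test) for Apln to Aplnr, -0.74 for Angpt2 to Angpt1 and 0.16 for Tek to Tie1. With limma-voom and quality weights the log2 fold change was -0.018 for Angpt2, 0.275 for Tek, 0.060 for Ptprb and -0.015 for Unc5b. With a prior count of 0.5 the Angpt2 to Angpt1 ratio differed by -0.04.

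A replicate block over replicates 1 to 5 leaves out induced 6 and induced 7. The log2 fold change was then 0.199 for Tek, 0.189 for Tie1, 0.131 for Ptprb, 0.597 for Apln and 0.113 for Angpt2. It was 0.005 for Unc5b, -0.175 for Aplnr and -0.212 for Esm1. Of 14906 genes 0 were called, and 105 had an unadjusted p under 0.05, among them 1 of these 8 (edgeR). The deviations of same-numbered tumours correlated at -0.31, -0.51, -0.51, -0.53 and 0.21. The labels state no pairing, and whether same-numbered tumours share a batch or handling was not tested.

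Leaving out 1 tumour at a time, the log2 fold change ran from -0.092 to 0.14 for Angpt2, -0.588 to 0.099 for Tek, -0.104 to 0.075 for Tie1, -0.204 to 0.054 for Ptprb, -0.334 to 0.013 for Esm1, -0.02 to 0.113 for Unc5b, 0.21 to 0.639 for Apln and -0.671 to -0.027 for Aplnr. For Angpt1 it ran from -0.75 to -0.669 in those sets where the gene passed the filter. Each of these left out control 2, 3, 4 or 5 and kept control 1, so the range does not show the effect of that tumour. Without a filter and without control 1 it was 0.845. In that added fit it was -0.092 for Angpt2, 0.097 for Tek, 0.019 for Tie1, 0.053 for Ptprb and -0.016 for Unc5b. With the endothelial score in the fit, the range was -0.101 to 0.136 for Angpt2, -0.448 to 0.029 for Esm1 and -0.016 to 0.11 for Unc5b. Endothelial slopes stayed positive for Tek (2.701 to 4.064), Tie1 (1.523 to 2.014), Ptprb (1.371 to 2.004), Apln (1.249 to 2.165) and Aplnr (2.539 to 4.105), and ran from -1.005 to 0.176 for Angpt1 and -1.147 to 1.419 for Esm1. Mural slopes ran from -0.511 to 0.044 for Angpt2 and -0.5 to 0.111 for Apln, with 0 to 2051 genes called. Hypoxia slopes ran from -3.562 to 0.636 for Angpt1, -1.84 to 0.35 for Apln, -0.735 to 1.272 for Esm1 and -0.213 to 0.693 for Unc5b, with 0 to 1 genes called. The ratio difference ran from -0.73 to 0.26 for Angpt2 to Angpt1, -0.46 to 0.08 for Tek to Tie1 and 0.45 to 1.3 for Apln to Aplnr. Depth limited Angpt1 most, at 3 to 13 reads in all tumours but control 1.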
